A study of Homo sapiens with 3 samples.

Results

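The subtelomeric ends of human chromosome arms were described from the H3K27me3 peaks that lie within 1 Mb of a chromosome end on T2T-CHM13, an assembly that runs from telomere to telomere. The rule took 35 ends, 15 on short (p) arms and 20 on long (q) arms, which make up 35 Mb. The start of a chromosome was the p end, and the q end was put at the outermost base under a peak of any of the lists. These windows held 2696 of 181157 control peaks (1.49%) and 1808 of 105729 siORCA peaks (1.71%). The peaks came from U2OS cells, a human osteosarcoma line, that received a control transfection (Gl3) or siORCA, which is directed at ORCA. Each condition had 1 ChIP library, both from the same labelled batch, and the other of the 3 samples was an input, which was not used here. The level of ORCA was not measured in these data. With 1 library per condition no difference was tested, and the ends are not replicates of a condition. The read depth is not known from the sources used here, and a step without a siORCA peak was not shown to lack the mark.

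H3K27me3 is deposited by Polycomb repressive complex PRC2 and marks silenced genes, often in broad domains. ORCA is a protein that binds the origin recognition complex and is known to associate with heterochromatin. Subtelomeres lie between the telomere repeats and the unique sequence of an arm, and are built of blocks that are duplicated between ends. U2OS cells lack telomerase and maintain their telomeres by recombination, the pathway known as ALT. The ends of 4q and 10q are known to carry D4Z4, a macrosatellite array that Polycomb proteins bind. No sequence or annotation of this build was used, so positions are given as distances from the end and were not tied to genes or repeats.

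Every one of the 35 ends began with a peak in both lists, and this outermost peak was wider in siORCA at 35 of 35 ends. In the control it started from 0 to 1225 bp from the end (median 86 bp), and in siORCA from 0 to 295 bp. On q arms the distance in siORCA is 0 because its peaks set the end. On p arms, where the end does not depend on the peaks, the siORCA peak lay closer to the end at 15 of 15. Each control peak lay wholly inside the siORCA peak. The widths ran from 232 bp (17p) to 2378 bp (21q) in the control, with a median of 808 bp. They ran from 516 bp (9q) to 3419 bp (21q) in siORCA, with a median of 1604 bp. The ranges of width thus overlapped between lists, although each end kept the same order.

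Within the control list the outermost peaks were among the weakest by fold enrichment, the ratio of a peak to its background as the authors' peak caller gave it. Their folds lay between 1.32 (17p) and 1.75 (12q), and only 88 of the 181157 control peaks had a fold as low as that of 12q. Their −log10 q, the caller's measure of how unlikely a peak is as noise, lay between 1.19 and 3.42, with a median of 2.20 against 1.78 in the whole control list. Within the siORCA list the same places were among the most significant. Their −log10 q lay between 13.9 (1p) and 21.2 (4p), with a median of 16.9 against 1.73 in the whole siORCA list. Only 197 of the 105729 siORCA peaks reached the lowest of these values. Their folds, from 3.37 (10p) to 4.18 (9q), reached the upper part of the list without being extreme. Of the 40 siORCA peaks with the highest −log10 q in the windows, 35 were outermost peaks, and of the 40 such control peaks 0 were. Folds and −log10 q depend on the depth and background of a library, so they were ranked within a list and not compared between lists. The peak caller and its handling of multiply aligned reads, which chromosome tips can attract, are unknown here, and their part in these values was not tested.

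**Figure D1:**
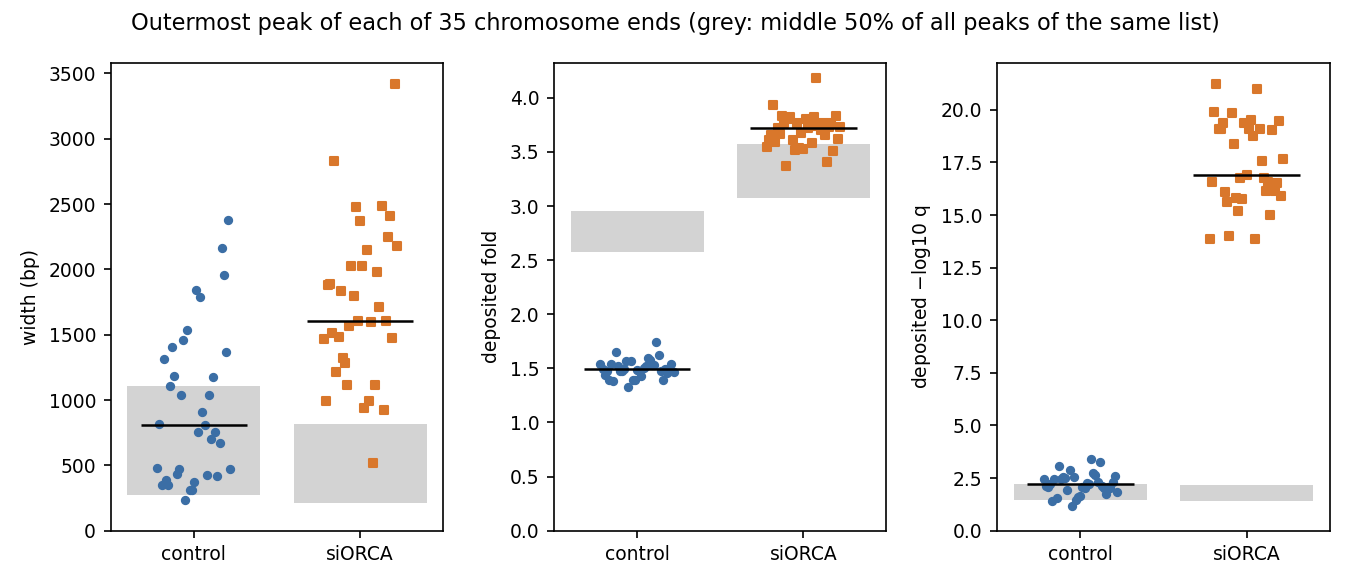
Width in bp, deposited fold and deposited −log10 q of the outermost peak of each of 35 chromosome ends, with 1 point per end, a bar at the median and a grey band over the middle 50% of all peaks of the same list. Control points lie below the fold band of their list (highest 1.75), and siORCA points lie far above the −log10 q band of theirs (lowest 13.9).

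The 11 chromosome ends outside the rule, those of the acrocentric short arms and of chromosomes 19, 20 and X, also began with a peak in both lists. Their outermost siORCA peaks had −log10 q from 12.5 to 19.2, and their outermost control peaks had folds from 1.36 to 2.72 with a median of 1.64. The siORCA values overlapped those of the 35 ends, and the control folds reached higher (2.72, at 19p).

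Over the whole 1 Mb windows, peaks covered less length after siORCA. They covered 3.79 Mb (10.8%) in control cells and 1.46 Mb (4.18%) in siORCA, a ratio of 0.387. Inside the windows the median fold was 2.77 in control cells and 3.22 in siORCA, near the 2.73 and 3.29 of the whole lists. Their median widths were 568 bp (control) and 390 bp (siORCA). At 31 of 35 ends siORCA peaks covered less length than control peaks, a share to be read beside the 94.2% of all 1 Mb bins of the series that were lower. It was at most 0.5 of the control at 21 of 35 ends, beside 80.9% of all 1 Mb bins. At both limits the share of ends was below the share of bins. A fold limit of 3 in both lists kept 629 of 2696 control peaks and 1443 of 1808 siORCA peaks of the windows. It thus favours higher ratios, and with it 19 of 35 ends were lower.

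The ratio of covered length differed with the distance from the end. In the outermost 150 kb peaks covered 14.6% in control cells and 11.02% in siORCA, a ratio of 0.754, and siORCA was higher at 18 of 35 ends. From 150 to 250 kb the shares were 17.4% and 5.85%, a ratio of 0.336, with siORCA higher at 10 ends. From 250 to 450 kb they were 12.8% and 2.21%, a ratio of 0.173, with siORCA higher at 2 ends. From 450 kb to 1 Mb they were 7.86% and 2.73%, a ratio of 0.348, and siORCA was lower at 35 of 35 ends. By covered length the lists were thus nearest to each other in the outermost 150 kb and furthest apart 250 to 450 kb inward. By position the 2 sides differed. Of the siORCA length, 42.7% lay under control peaks in the outermost 150 kb and 73.4% at 250 to 450 kb. Of the control length, 32.2% and 12.7% lay under siORCA peaks. Over all chromosomes 71.2% of the siORCA length and 31.9% of the control length were shared, near the 73.4% and the 32.2%. The shared part of the control cannot exceed the ratio of covered length, 0.754 and 0.173 here, so its fall partly restates that ratio. The covered share of the control was no lower at 150 to 250 kb than at the end itself, while that of siORCA was lower there.

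In single 50 kb steps the ratio was 0.844 at 0 to 50 kb, 0.756 at 50 to 100 kb and 0.656 at 100 to 150 kb. It was 0.390 at 150 to 200 kb, 0.289 at 200 to 250 kb and 0.137 at 250 to 300 kb, the lowest of the 20 steps. Further in it lay between 0.152 and 0.540. Without 4q and 10q, described below, the outermost 150 kb had a ratio of 0.496 (14.1% and 6.99%), and the steps at 50 to 100 kb and 100 to 150 kb came down to 0.407 and 0.355. The high ratios at 50 to 150 kb thus rested on these 2 ends. The outermost step kept 0.707 without them, and the step at 250 to 300 kb kept 0.138. Leaving out 12q, the end with the most control coverage, brought the outermost step to 0.955. With the fold limit of 3, which favours higher ratios because it removed more control peaks, the outermost 3 steps were covered more in siORCA. Their ratios were 1.54, 1.33 and 1.14, and the lowest ratio was again at 250 to 300 kb (0.205). Without 4q and 10q only the outermost step was covered more in siORCA at that limit, with a ratio of 1.25. The next 2 steps then had ratios of 0.613 and 0.513.

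**Figure D2:**
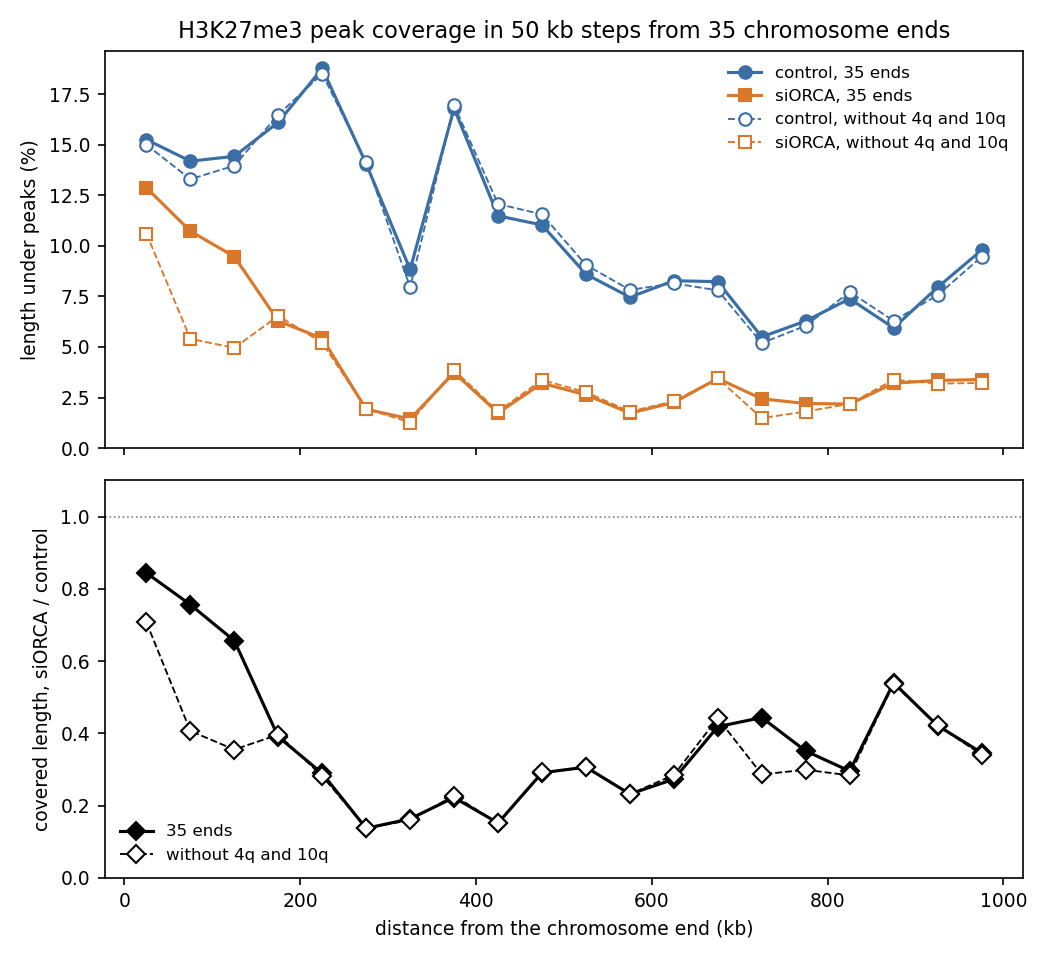
Share of length under peaks (upper panel, in %) and ratio of covered length, siORCA to control (lower panel), in 50 kb steps against the distance from the chromosome end in kb, for 35 ends (filled) and without 4q and 10q (open). The ratio is 0.844 in the outermost step and 0.137 at 250 to 300 kb, and the open symbols leave the filled ones mainly at 50 to 150 kb.

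Both libraries had peaks in the outermost 50 kb of 35 of 35 ends, and here siORCA was covered over more length at 21 ends and over less at 14. The median end had 4.10 kb under peaks in control cells and 5.504 kb in siORCA. On p arms 8.58% of this step was covered in control cells and 9.03% in siORCA, with siORCA higher at 10 of 15 ends. On q arms the shares were 20.2% and 15.7%, with siORCA higher at 11 of 20. These lengths include the outermost peaks, which made up 33.2 of 266.9 kb in control cells and 60.4 of 225.2 kb in siORCA. At 3p and 6p the outermost peak was the whole siORCA length of the step (1.879 and 2.828 kb). The shares and counts for this step thus rest in part on these peaks, and were not computed without them. At 300 to 350 kb, by contrast, 25 ends had a control peak and 15 had a siORCA peak, and the median end had 0.978 kb in control cells and 0 kb in siORCA. In the outermost 50 kb the covered share was thus higher in siORCA on p arms and lower on q arms. Over the full 1 Mb it was lower in siORCA on both, with 13.5% and 5.46% at the q ends and 7.30% and 2.48% at the p ends.

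Of the 700 steps, 297 had at least 5% of their length under peaks in either list. Of these, 214 (72.1%) had a siORCA length of at most 0.5 of the control, against 75.1% of all 50 kb bins of the series. The opposite change, a siORCA length at least 2 times the control, occurred in 22 steps (7.41%), against 2.83% of all bins. The steps with more siORCA coverage lay close to the ends. Of the 68 steps counted in the outermost 150 kb, 29 were lower and 16 higher, and of the 189 counted from 250 kb inward, 155 were lower and 2 higher. The outermost step alone gave 10 of the 22, at 6p, 9p, 11p, 17p, 1q, 3q, 4q, 9q, 10q and 15q. Its length includes the outermost peak, which was all of the siORCA length at 6p (2.828 kb). At 1q that peak made up 2474 bp of 3.989 kb. Without 4q and 10q, 16 of 279 steps were higher.

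The ends of 4q and 10q were the most covered in siORCA. At 4q, 5.61% of the window was covered in control cells and 12.4% in siORCA, the highest ratio of the 35 ends (2.21). At 10q the shares were 18.2% and 17.5%, a ratio of 0.961. In siORCA most of this length was a single block at the same distance from both ends. At 4q it was 1 peak of 109.8 kb, from 31.6 to 141.4 kb from the end (chromosome 4 from 193433490 to 193543316), with a fold of 4.98. At 10q it was 4 peaks with folds from 4.15 to 4.90 over 110.5 kb, from 31.6 to 142.1 kb from the end (chromosome 10 from 134615928 to 134726429). These peaks were the longest 3 of the siORCA windows, with 109.8, 56.8 and 42.3 kb, together with 2 short ones.

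In the control the same blocks were broken into many short peaks. The 4q block held 47 control peaks with a median width of 442 bp and folds from 2.40 to 3.12, which covered 29.0 kb (26.4%). The 10q block held 38 control peaks with a median width of 674 bp and folds from 2.43 to 3.64, which covered 29.1 kb (26.4%). The siORCA peaks covered 100% and 98.7% of these blocks, 3.79 and 3.74 times the control length. The blocks were drawn from the outer bounds of the siORCA peaks. Their near-full siORCA coverage and the direction of the difference thus follow from that choice and are a description. The spacing of the short control peaks was then measured. The autocorrelation of control coverage over the block had its most prominent maximum at 3.34 kb at 4q (0.309, rising 0.478 above its surroundings) and at 3.24 kb at 10q (0.398, rising 0.640). At the 16 other ends with at least 5 kb covered over the same distances and a maximum between 2 and 6 kb, the largest rise was 0.189, at 11p. The autocorrelation itself reached higher values elsewhere, up to 0.563 at 11q, with a rise of 0.107. Among ends with less than 5 kb covered there, 1p had the largest (0.254). D4Z4 is made of kilobase-sized units in tandem, but the match of the blocks to the array was not examined here.

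The outer flanks of the blocks also matched. Just outside the block, each arm had a peak of about the same width in both lists. At 4q it was 2.96 kb wide in the control (fold 3.33) and 2.38 kb wide in siORCA (fold 4.25), and both lay 27.1 kb from the end. At 10q it was 1.996 kb wide in the control (fold 3.44), 26.8 kb from the end, and 2.37 kb wide in siORCA (fold 4.19), 27.3 kb from the end. Summed over the rest of each window, siORCA was covered less: the rest of the 4q window was covered over 27.1 kb in control cells and 14.3 kb in siORCA, a ratio of 0.526, and the rest of the 10q window over 153.0 and 66.0 kb, a ratio of 0.432. Within that rest 10q had a smaller siORCA domain, from 712.4 to 735.6 kb from the end, with 6.09 kb covered in the control against 16.6 kb in siORCA. The blocks held 88.5% of the siORCA length of 4q and 62.3% of that of 10q. Leaving out blocks drawn from siORCA peaks favours a lower ratio in the rest.

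**Figure D3:**
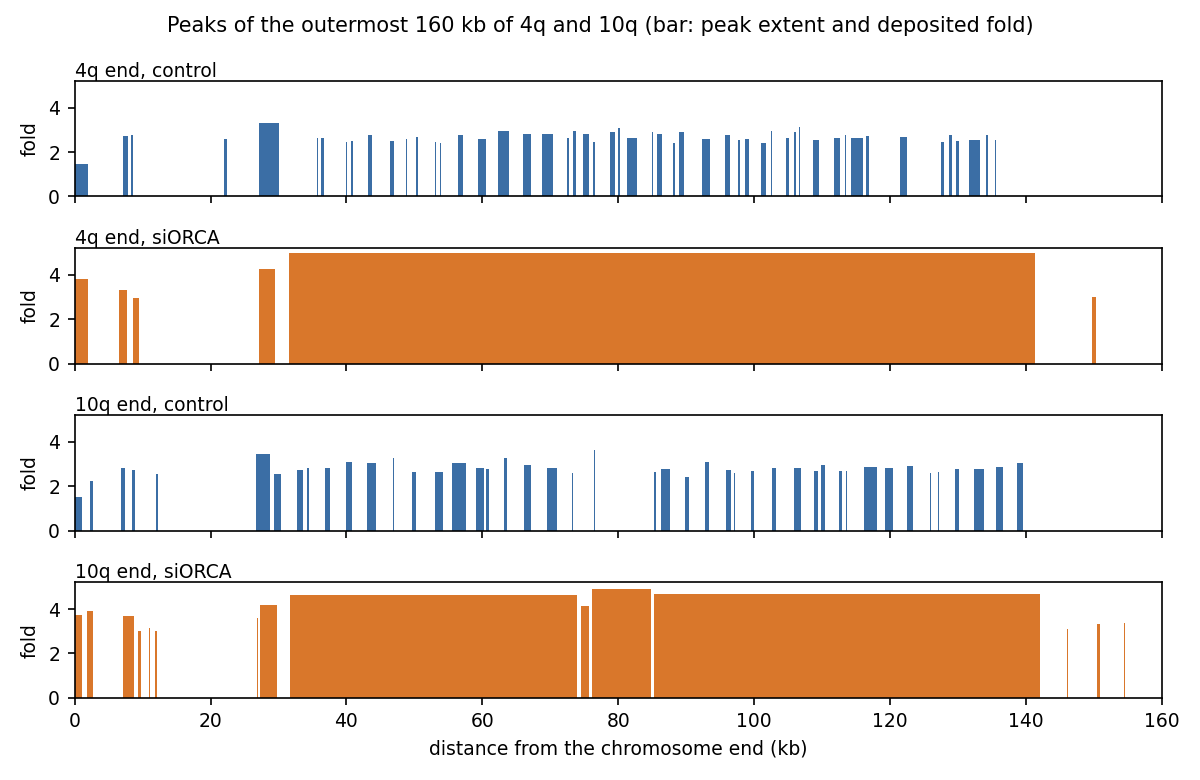
Peaks near the ends of 4q and 10q, with the distance from the chromosome end in kb on the x axis and the deposited fold on the y axis; each bar spans 1 peak. From about 31.6 kb inward, siORCA holds 1 peak of 109.8 kb at 4q and 4 peaks at 10q, where the control holds 47 and 38 short peaks.

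In siORCA the layouts of 4q and 10q were the most alike of the pairs compared. Coverage in 500 bp bins from 10 to 250 kb, with shifts of up to 30 kb, was compared between 22 ends with at least 5 kb covered in both lists (231 pairs). There the correlation of 4q with 10q was 0.917 at a shift of 0.5 kb, against a median of 0.156 over pairs. The blocks described above fill much of the compared span on both arms, so this value largely restates them. The next most alike pair was 7p and 16q, with 0.677 in siORCA and 0.355 in the control at the same shift of 6 kb. In the control 4q and 10q reached 0.260, below the highest pairs of that list, 18p with 15q (0.769) and 18p with 9q (0.555). The points of a pair share a library, and near-identical sequence at both ends can share reads, whose treatment is not given in the sources used here.

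Among the other ends, the lowest ratios were at 4p, 14q and 18p. The 4p window was covered over 28.5% in the control (222 peaks) and 0.868% in siORCA (21 peaks), a ratio of 0.0305. The 14q window was covered over 15.8% (205 peaks) and 0.872% (30 peaks), a ratio of 0.0552. The 18p window was covered over 10.8% and 1.43%, a ratio of 0.133. Together with 12q (0.172) and 18q (0.1996), these were the 5 ends with less than 0.2 of the control length. At 4p the outermost siORCA peak, 1887 bp wide, was among the 21 that were called, and 4 broad control domains between 68.3 and 491.4 kb from the end held most of the control length.

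The most covered control ends were 12q, 9q, 8q, 4p and 11q, which held 40.2% of the control length of the 35 ends. At 12q the window was covered over 42.02% in control cells and 7.24% in siORCA. At 9q the shares were 30.04% and 8.85%, at 8q 29.6% and 7.97%, and at 11q 22.02% and 7.12%. In siORCA the most covered ends were 10q, 4q, 15q, 9q and 8q, with 15q at 8.96% against 11.9% in the control. Across the 35 ends the covered shares of the lists had a Spearman correlation of 0.598 and a Pearson correlation of 0.464, given as a description, since the ends share a library in each list.

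Coverage was thin in the control at 11 ends, 1p, 2p, 3p, 6p, 8p, 9p, 10p, 11p, 17p, 1q and 22q, which were covered over 0.438% to 4.36% in control cells and 0.347% to 4.06% in siORCA. The least covered was 10p, with 0.438% and 0.347%, the only end under 1% in both lists. Of the 4 ends covered at least as much in siORCA, 3 were in this group. They were 1p, with 3.72% and 4.01%, 9p, with 1.26% and 1.32%, and 11p, with 3.69% and 4.06%. Without the outermost 50 kb, 33 of 35 ends were lower in siORCA, and the ratio of 9p came to 0.423 and that of 11p to 0.980, while 1p kept 1.01. At 9p and 11p, then, siORCA exceeded the control only with the outermost step counted, and at 1p it did so without it too.

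Over all 35 ends, a ratio from 0.2 to 0.5 was found at 16, from 0.220 at 17q to 0.492 at 22q, and a ratio from 0.5 to 1 at 10 ends, among them 16q (0.761), 15q (0.755), 3q (0.703) and 16p (0.668). Fewer peaks were called in siORCA at 27 of 35 ends, and the whole siORCA list was also shorter (105729 against 181157 peaks). The same count over all 1 Mb bins is not given here, so it was not shown to be particular to the ends. At 8q the number of peaks was higher in siORCA (85 against 66) although less length was covered, so that number and length did not move together.

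**Figure D4:**
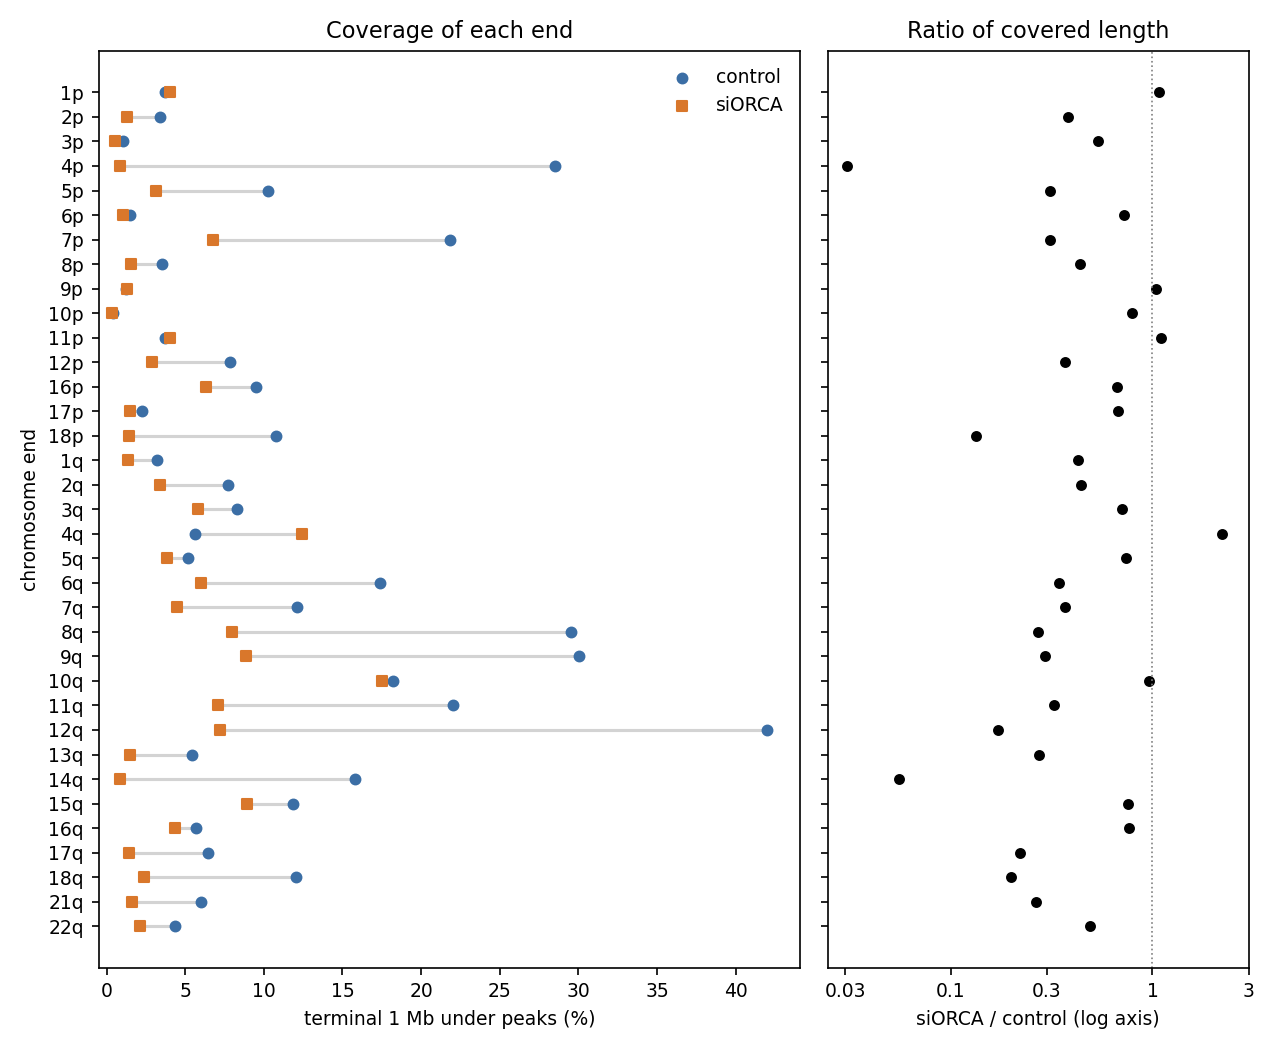
Share of the terminal 1 Mb under peaks (left, in %) and ratio of covered length, siORCA to control (right, log axis), for each of 35 chromosome ends, with control as circles and siORCA as squares. The siORCA square lies left of the control circle at 31 ends, and 4q stands apart with a ratio of 2.21.

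Peaks separated by gaps of up to 3 kb were merged into domains, and merged stretches from 20 kb upward were called broad. The control had 45 of them (2.41 Mb, on 18 ends), and siORCA had 22 (0.776 Mb, on 15 ends). The longest control domain filled the tip of 12q, from 6.28 to 309.4 kb from the end (chromosome 12 from 133015091 to 133318260). Its 43 control peaks covered 271.7 kb and siORCA peaks covered 18.4 kb of it (6.07%). The next lay at 4p from 331950 to 491444, with 99.3 kb covered in control cells and 1.95 kb in siORCA. Another lay at 9q from 150322418 to 150444747, with 106.2 kb and 17.6 kb. A further one lay at 12q from 132892814 to 133005164, with 86.6 kb and 5.89 kb. The last of the longest 5 lay at 8q from 145795755 to 145903918, with 94.2 kb and 31.5 kb. The share of these 5 under siORCA peaks ran from 1.22% at 4p to 29.1% at 8q. They were called and ranked by control coverage, which favours a lower siORCA value, so the direction is a description.

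Of the 45 control domains, 12 had under 5% of their length covered in siORCA, beside 27.5% of all 1708 control broad domains of the series. At least 50% was covered in 8, beside 13.0% of all. Of the 22 siORCA domains, 12 had at least 50% of their length covered in the control, beside 53.1% of all 823 siORCA broad domains, and 0 had under 5%, beside 2.43% of all. The counts at the ends were thus near the background of the series. Almost complete retention was seen at 15q, where a control domain of 56.3 kb from 99067060 to 99123373 was covered over 48.2 kb in control cells and 44.5 kb in siORCA. The longest 5 siORCA domains were the blocks of 10q (115.4 kb) and 4q (114.3 kb), then 15q (55.3 kb), 12p (39.3 kb) and 16p (34.4 kb). At 12p the domain, from 27.3 to 66.6 kb from the end, was covered over 26.2 kb in control cells and 16.7 kb in siORCA. The 16p domain, from 835.5 to 869.9 kb, was covered over 25.1 and 21.5 kb.

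A further group of siORCA domains lay about 150 to 195 kb from the end of 4 arms. At 1p the domain ran from 163.7 to 194.8 kb from the end, with 7.88 kb covered in control cells and 13.2 kb in siORCA. At 11p it ran from 161.9 to 193.8 kb, with 10.6 and 15.5 kb. At 5q it ran from 166.0 to 191.9 kb, with 6.49 and 12.8 kb, and at 3q from 148.3 to 176.5 kb, with 9.60 and 13.5 kb. Each was made of 15 or 16 siORCA peaks and was covered 1.41 to 1.96 times as far as in the control. These 4 were picked from the 22 siORCA domains for their position after the values had been seen, and a siORCA domain is chosen for its siORCA coverage, so the direction is a description.

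**Figure D5:**
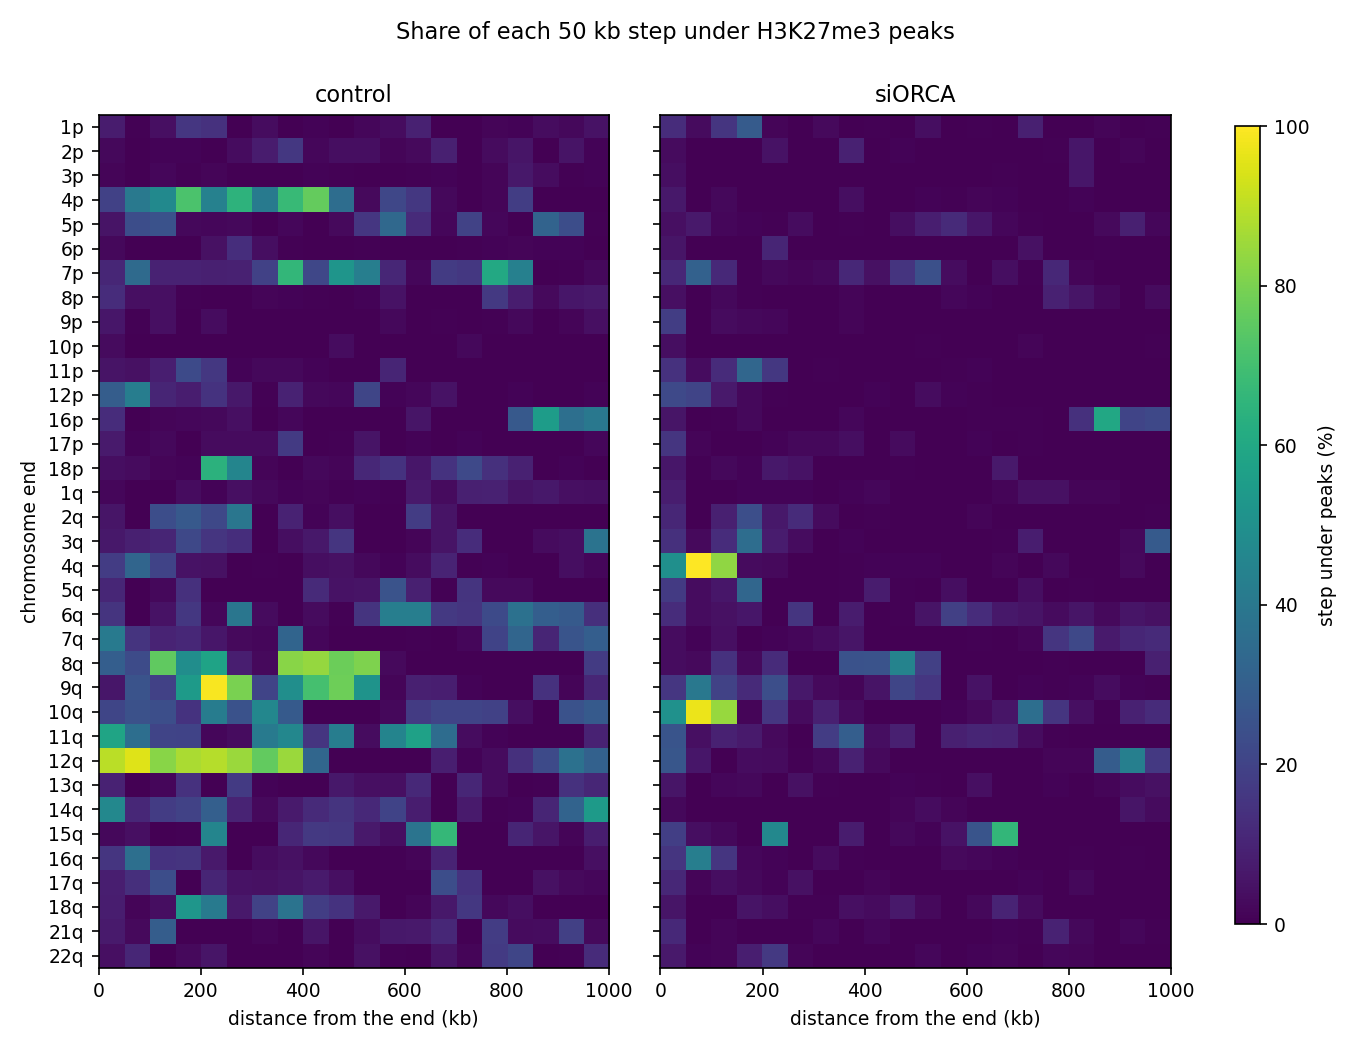
Share of each 50 kb step under peaks (colour, in %) for 35 chromosome ends (rows) against the distance from the end in kb, in control cells and in siORCA. The long bright runs of 12q, 4p, 8q and 9q in the control are dim in siORCA, whose brightest steps are at 50 to 100 kb of 4q (50 of 50 kb) and 10q (48.5 of 50 kb).

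The steps with the largest shortfall in siORCA were the 5 steps of 12q between 50 and 300 kb. The step at 50 to 100 kb was covered over 47.6 kb in control cells and 2.94 kb in siORCA, and the step at 100 to 150 kb over 41.2 kb and 0 kb. The largest excesses of siORCA were the 3 outermost steps of 4q and those at 50 to 100 and 100 to 150 kb of 10q. The 4q step at 50 to 100 kb was covered over 16.4 kb in control cells and 50 kb in siORCA, and the same step of 10q over 12.5 kb and 48.5 kb. At 50 to 150 kb from the end, 12q was thus covered far less in siORCA and 4q and 10q far more. These steps were picked for the size of their difference, so that size is a description.

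The strongest peaks of at least 1 kb by fold lay 221.8 to 986.3 kb from the end and were largely covered in both lists. In the control they were at 3q from 200104109 to 200119684 (fold 8.44, across the inner edge of the window), 6q from 171528288 to 171533103 (8.41), 15q from 99072076 to 99110862 (6.33), 7p from 494558 to 510262 (6.0) and 2p from 358194 to 365222 (4.67). From 64.8% (2p) to 100% (6q) of each was covered in siORCA. In siORCA they were at 6q from 171528236 to 171533734 (11.4), 15q from 99509444 to 99531256 (10.5), 15q from 99072241 to 99109236 (8.54), 7p from 500059 to 509796 (8.49) and 10q from 134024330 to 134030440 (8.04). Control peaks covered from 85.2% (10q) to 100% of them. The 6q, 7p and one of the 15q peaks were in both sets of 5.

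Sharing within the windows was highest for the strongest and for the widest control peaks. Of the 2696 control peaks, 874 (32.4%, 95% Wilson interval 30.7 to 34.2%) overlapped a siORCA peak by at least 1 bp, against 33.7% in the whole list. Of the 1808 siORCA peaks, 1103 (61.0%, 58.7 to 63.2%) overlapped a control peak, against 68.7% in the whole list. Both intervals reflect counting error alone, with neighbouring peaks taken as independent. Among control peaks with a fold of at least 3.5, 84 of 102 overlapped a siORCA peak and 41.01% of their length was shared. Among those with a fold from 2.5 to 3, 447 of 1728 did and 14.5% of their length was shared. Among those with a fold from 3 to 3.5, 223 of 527 did and 20.6% of their length was shared. The weakest class, with a fold under 2.5, held the outermost peaks. Of its 339 peaks, 120 overlapped a siORCA peak, and 34.1% of its length was shared, so sharing did not rise steadily with fold. Of the 40 control peaks of at least 10 kb, 37 overlapped a siORCA peak, but only 28.7% of their length was shared, so that most of the length of these wide peaks was in the control list alone. A wide peak also meets an overlap of 1 bp more easily than a narrow one. No whole-list share of these fold and width classes is given here, so the pattern was not shown to be particular to the ends. By distance, 40.1% of the control length was shared in the outermost 50 kb and 9.34% at 250 to 300 kb. The siORCA length went the other way, with 47.6% shared in the outermost 50 kb and 68.1% at 250 to 300 kb. Sharing by end ran from 1.51% of the control length at 4p to 65.3% at 4q. The shared part of the control length cannot exceed the ratio of covered length. That ratio was 0.844 at 0 to 50 kb, 0.137 at 250 to 300 kb and 0.0305 at 4p, so these control shares partly restate it. Over all chromosomes 31.9% of the control length and 71.2% of the siORCA length were shared.

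The windows were more densely covered than the regions next to them. From 1 to 2 Mb from the same ends, peaks covered 8.90% in control cells and 2.89% in siORCA, a ratio of 0.325, and from 2 to 5 Mb 8.81% and 1.97%, a ratio of 0.224. Covered length was lower in siORCA at 35 of 35 arms in both of these. In the rest of the same chromosomes, centromeric regions included, it was 6.67% and 3.05%, a ratio of 0.458. With 1 library per condition these differences between regions were not tested.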

How the data were processed

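H3K27me3 ChIP-seq of U2OS cells was read from 2 lists of broad peaks, 1 per condition, deposited by the authors with each ChIP sample. Per the submitters' processing notes, the tools were SAMtools, Bowtie2, Trimmomatic and bcl2fastq, and the build was T2T-CHM13. The sources used here do not give the peak caller, its settings or how duplicate and multiply aligned reads were treated. The deposited fold is a ratio of peak to background, and the deposited −log10 p and −log10 q and the deposited score belong to each peak. The score was not used.

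Covered length is the merged length of peaks cut to the window, computed with Python 3.11.15, numpy 2.4.6, pandas 2.3.3 and scipy 1.17.1. A peak belonged to a window if it had at least 1 bp in it. The interval code was tested on simulated peak lists against a base-by-base count, with 0 of 500 lengths wrong. No test across conditions was made. The named regions were the ends with the 5 highest covered shares in each list, the 3 lowest and 3 highest ratios among ends covered over at least 5% in the control, ends under 1% in both lists, the 5 longest domains, the 5 strongest peaks of at least 1 kb and the 5 largest changes in steps, with 4q and 10q in each case. The ends, this rule and the distance classes were chosen with earlier results of these data known; the outermost peaks, the blocks of 4q and 10q, their spacing and the likeness of layouts were described after the lists had been examined.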

Additional observations from a re-analysis of the deposited data

How the results depend on the processing

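No paired analysis was possible because each condition is a single library, and none could be left out. The alternatives were a lower limit of 2 on −log10 q, one of 3 on the fold, equal numbers of peaks by −log10 p, windows of 500 kb and 2 Mb, leaving out 12q or the outermost 50 kb, steps of 100 kb, a step minimum of 10%, and other gaps and overlaps; leaving out 4q and 10q, the fold limit on the steps, and both together, were added after seeing the data. The ratio of covered length lay between 0.310 and 0.454 under these, and was 0.617 with a fold of at least 3. Ends lower in siORCA numbered 25 to 34, and 19 with a fold of at least 3. Steps at most 0.5 of the control numbered 119 with that limit; with windows of 500 kb and 2 Mb they were 117 and 435, as fewer or more steps were counted. Steps at least 2 times the control were 45 with the fold limit and 12 without the outermost 50 kb, which holds many of them. The fold limit turned the direction of the outermost 100 kb, from a ratio of 0.802 to 1.44, but not without 4q and 10q (0.928), where the lowest ratio of a step was 0.211 against 0.137; this limit exceeds the control list's median fold and not that of siORCA. Of the control length, 22.8% was shared with siORCA; it was 16% with the q limit, 25.6% with the fold limit, and as peaks 32.4% (1 bp) and 17.2% (50% of length). Of the siORCA length, 59.0% was shared with control; it was 51.5%, 41.5% and 53.4% with the limits on q, fold and number, 53.4% and 63.5% with windows of 500 kb and 2 Mb, 65.0% without 4q and 10q, and 50.8% as peaks over 50% of length. The ratio of domain numbers, 0.489, was 0.179 with a gap of 1 kb and 0.857 with the fold limit. That of domain length, 0.322, was 0.487 with a gap of 10 kb and 0.786 with the fold limit. The cause was not tested. The alternatives not listed kept the direction and stayed within 1.5 times the main value, or within its counting interval for shares.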
